A study of Homo sapiens with 12 samples.

Results

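The 10 genes described here encode receptor tyrosine kinases: PDGFRA, PDGFRB, KIT, EGFR, ERBB2, MET, AXL, FGFR1, IGF1R and EPHA2. They were taken by gene symbol from a table of 25435 gene symbols, without reference to their values. All 10 were found there, and 9 of them passed the filter on low counts, as did 13365 genes in all; KIT did not pass. RNA was sequenced from LMSU, a line of human gastric cancer cells with mutant p53 (R175H) per the labels, in 6 groups of 2 libraries, 12 in all.

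In the knockout arm, grown without doxycycline, the p53 KO (construct GFP_sg-1, labelled as lacking R175H) was set against the KO control (construct GFP_V2, labelled as carrying it). In the knockdown arm, where every group received doxycycline, p53 shRNA 1 and p53 shRNA 2 (labelled as lacking R175H) were set against a scramble shRNA and against vector (both labelled as carrying it). Separate cultures are not stated for the 2 libraries of any group, so the p-values measure the spread between libraries, which may be technical. Whether a line was 1 clone is not stated either. The 2 arms differ in construct and in doxycycline, so those factors cannot be told apart when levels are set side by side across arms.

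Receptor tyrosine kinases span the cell membrane. A ligand outside brings receptors together, the kinase domains inside phosphorylate each other, and adaptors bound to the phosphotyrosines pass the signal to the RAS-MAPK, PI3K-AKT, PLC-gamma and STAT pathways. In gastric cancer ERBB2, MET, FGFR and EGFR genes are known for amplification in subsets of tumours, and PDGF receptors are best known from fibroblasts and other mesenchymal cells.

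Library totals ran from 9738094 to 16823246 counts. The biological coefficient of variation, the spread between libraries of a group beyond counting noise, was 15.6% over the 4 libraries of the knockout arm and 3.07% over the 8 of the knockdown arm. The fit to all 12 together gave 9.55%. The 2 libraries of a group differed beyond sampling noise in each of the 6 groups. Chi-squared per degree of freedom was 34.4 in KO control and 9.99 in p53 KO. It ran from 1.56 to 2.31 in the groups of the knockdown arm. Of 14 markers of gastric epithelium 13 were in the table, and 9 of these 13 were below 1 CPM (read counts scaled to library size after TMM, the trimmed mean of M-values) in all 12 libraries, among them EPCAM, CDH1, KRT19, CLDN18 and MUC6, with TFF1 and TFF2 at 0. The keratins KRT8 and KRT18 were expressed, the lowest library at 63.9 CPM for KRT8 and 185 CPM for KRT18. All 13 markers of fibroblast and mesenchyme were detected. In bulk RNA, fewer cells of a kind and less RNA per cell cannot be told apart.

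The promoters of PDGFRA, PDGFRB, AXL and EPHA2 are shown because these genes carry the main differences below: both PDGF receptors stood highest in the knockdown arm relative to the knockout arm, EPHA2 stood lower there, and AXL separated vector from every other group. The sequences are the 250 bases before the RefSeq start site in GRCh38.p14, on the strand of the gene, written 5′ to 3′; the authors' counts used hg19, so no coordinates were carried between them. PDGFRA and AXL have 2 annotated start sites each, and the second window of AXL is not printed. Capitals mark the GC box, GGGCGG or its reverse complement CCGCCC.
PDGFRA, first start site, chr4:54229043-54229292, plus strand: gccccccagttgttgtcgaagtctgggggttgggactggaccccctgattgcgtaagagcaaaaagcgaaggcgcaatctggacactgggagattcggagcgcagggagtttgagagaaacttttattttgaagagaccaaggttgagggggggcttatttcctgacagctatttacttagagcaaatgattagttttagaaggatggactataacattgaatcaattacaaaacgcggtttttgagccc
PDGFRA, second start site, chr4:54233710-54233959, plus strand: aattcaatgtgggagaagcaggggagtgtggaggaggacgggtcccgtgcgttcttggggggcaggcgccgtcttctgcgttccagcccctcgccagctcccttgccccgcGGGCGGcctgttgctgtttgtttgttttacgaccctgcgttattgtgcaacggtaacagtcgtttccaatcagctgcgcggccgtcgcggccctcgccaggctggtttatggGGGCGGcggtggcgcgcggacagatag
PDGFRB, chr5:150155846-150156095, minus strand: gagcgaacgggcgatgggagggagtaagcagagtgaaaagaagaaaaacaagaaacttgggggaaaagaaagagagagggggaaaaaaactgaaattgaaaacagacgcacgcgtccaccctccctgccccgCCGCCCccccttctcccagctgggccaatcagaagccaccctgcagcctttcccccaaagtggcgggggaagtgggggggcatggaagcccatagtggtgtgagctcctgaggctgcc
AXL, first start site, chr19:41218973-41219222, plus strand: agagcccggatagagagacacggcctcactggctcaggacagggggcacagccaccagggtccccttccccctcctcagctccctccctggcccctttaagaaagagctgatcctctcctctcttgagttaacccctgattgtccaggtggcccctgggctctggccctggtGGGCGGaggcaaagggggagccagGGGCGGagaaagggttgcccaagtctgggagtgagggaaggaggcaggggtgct
EPHA2, chr1:16156070-16156319, minus strand: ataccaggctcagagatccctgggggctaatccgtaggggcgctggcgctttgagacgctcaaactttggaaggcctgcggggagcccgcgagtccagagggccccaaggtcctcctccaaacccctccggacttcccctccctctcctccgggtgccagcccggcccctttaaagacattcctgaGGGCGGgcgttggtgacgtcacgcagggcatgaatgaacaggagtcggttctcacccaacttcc

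The windows differed in base composition. The first PDGFRA window had 46.8% G and C and no GC box, the second PDGFRA window had 64.0% and 2 GC boxes, and the median over 35114 RefSeq promoters was 58.0%. The first PDGFRA window held an AP-1 motif (TGANTCA) starting at -32 from the start site, and the second held a CCAAT box at -74. PDGFRB held a CCAAT box at -94 and a GC box at -118. Of 12 windows of 9 receptor genes searched on both strands, 8 held a GC box and 3 a CCAAT box, against 42.6% and 32.0% of all promoters. An AP-1 motif was found in 3 of the 12 and in 6.6% of all promoters. The p53 decamer, searched by name, was found in 0 of the 12 and in 5.6% of all promoters, and the NF-kB motif, also by name, in 0 of the 12 and in 22.6%. Motifs may overlap one another, and a match or its absence describes letters in these windows only.

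PDGFRA, which binds PDGF-A, PDGF-B and PDGF-C chains, had the highest level per kilobase of exon among the 10 receptors in the knockdown arm, and its libraries were higher in every p53-depleted group than in the controls of its arm. PDGFRA was at 488 and 414 CPM in p53 KO libraries, against 274 and 357 CPM in KO control libraries. It was at 3334 and 3279 CPM with shRNA 1 and at 3538 and 3499.9 CPM with shRNA 2, against 2624 and 2715 CPM in scramble and 2496 and 2560.1 CPM in vector. No library of a p53-depleted group overlapped the controls of its arm. Of the 9 tested receptors PDGFRA alone had all 4 hairpin libraries above all 4 control libraries of the knockdown arm, as had 5.57% of the 13365 genes, and 0 receptors had them all below, as had 5.69%. PDGFRA was also higher in both p53 KO libraries than in both KO control libraries, and 0.98% of all genes, 131 in number, met both conditions. The reverse, lower in both arms, held for 0 receptors and 0.741% of all genes.

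**Figure D1:**
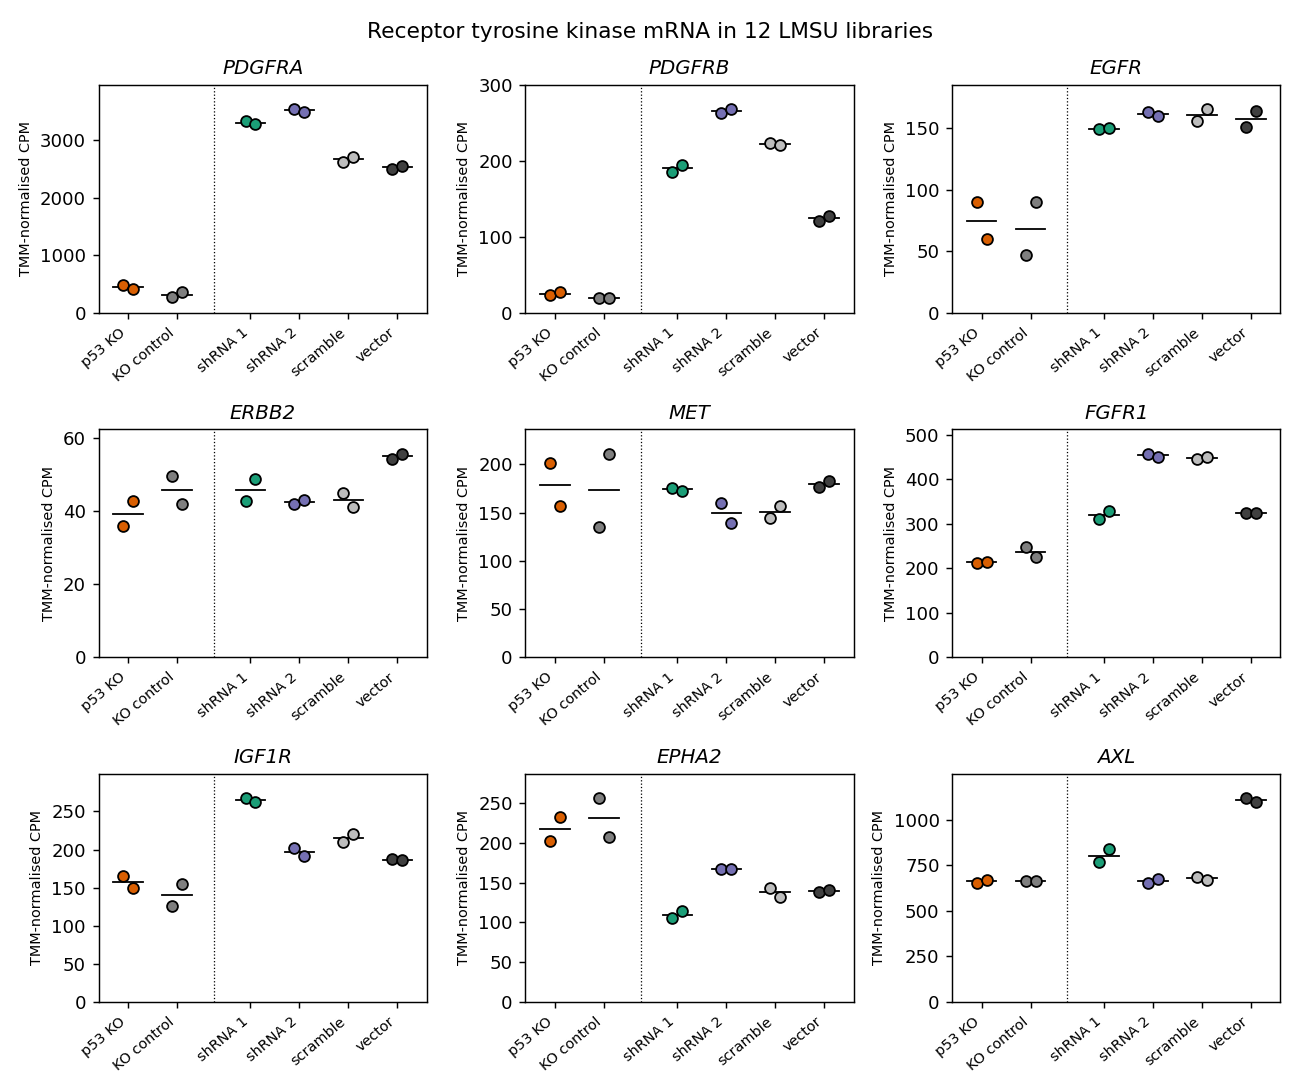
Level of each receptor but KIT in each library, in CPM after TMM scaling on a linear axis. The 6 groups run from left to right, with 1 point per library. PDGFRA lies between 274 and 488 CPM in the knockout arm and between 2496 and 3538 CPM in the knockdown arm, while MET overlaps between the arms.

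The PDGFRA difference passed the test in 1 of the 5 comparisons of a p53-depleted group with a control. The log2 fold change was 0.52 in p53 KO (SE 0.12, 1.43-fold, edgeR adjusted p = 0.423). Against scramble the value for shRNA 1 was 0.31 (adjusted p = 0.154), and that for shRNA 2 was 0.40 (adjusted p = 0.0763). Against vector shRNA 1 was at 0.39 (adjusted p = 0.0621), while shRNA 2 was called at 0.48 (SE 0.12, 1.39-fold, adjusted p = 0.0178). That call was lost without either shRNA 2 library or either vector library (adjusted p between 0.0897 and 0.121). With edgeR fitted to the 8 knockdown-arm libraries alone, whose spread is smaller, PDGFRA rose with both hairpins against both controls, with adjusted p = 5.55e-10 and 1.37e-13 against scramble and 2.35e-13 and 3.89e-17 against vector for shRNA 1 and shRNA 2. The same fit gave scramble minus vector 0.08 (adjusted p = 0.0777). The KO effect minus the mean hairpin effect against scramble was 0.16 (SE 0.16, adjusted p = 0.716).

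The summed level of the 13 fibroblast and mesenchyme markers moved with PDGFRA between arms. It was 11045 and 11541 CPM in p53 KO and 13079.7 and 10841 CPM in KO control libraries. In the knockdown arm it was 54039 and 56861 CPM with shRNA 1 and 53389 and 52767 CPM with shRNA 2, against 48866 and 48524 CPM in scramble and 41395 and 41623 CPM in vector. The sum overlapped between p53 KO and KO control, and was above both controls with both hairpins, where PDGFRA was also higher. The marker VIM alone made up a large part of the sum in the knockout arm. VIM was at 6814 and 7258 CPM in p53 KO and at 9388 and 7403 CPM in KO control. In the knockdown arm VIM ran from 13396 CPM with shRNA 2 to 16387 CPM in vector. Although the sum was higher with the hairpins, the 13 markers did not rise as a set there. Against scramble their median log2 fold change was -0.05 with shRNA 1 and -0.21 with shRNA 2. Against vector it was 0.08 and -0.16, beside 0.00 over all genes in each of these comparisons. Among its members DCN, a small collagen-binding proteoglycan, rose by 0.87 on the log2 scale with shRNA 2 against scramble (edgeR adjusted p = 0.00018), and THY1, a fibroblast surface glycoprotein, fell by 0.97 there (adjusted p = 0.00189). Against scramble 1 of the 13 rose and 2 fell with shRNA 1, where 4.26% and 4.83% of all genes did, and 2 rose and 1 fell with shRNA 2, where 3.39% and 4.01% did. Against vector 6 rose and 1 fell with shRNA 1 (5.6% and 7.08% of all genes), 6 rose and 2 fell with shRNA 2 (9.1% and 11.5%), and 6 rose and 1 fell in scramble (6.94% and 7.98%). In p53 KO edgeR called 0 of the 13, with 7 at an unadjusted p below 0.05, beside 6.35% of all genes. The markers' median log2 fold change there was 0.21, beside -0.01 over all genes. Libraries did not overlap for 8 of the 13, with 7 higher and 1 lower in p53 KO, and for 23.2% of all genes. The part of these markers in the PDGFRA result was not tested.

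PDGFRB, the partner receptor that binds PDGF-B and PDGF-D, ordered the knockdown-arm groups differently from PDGFRA. It was at 186 and 195 CPM with shRNA 1 and 263 and 268 CPM with shRNA 2, against 223 and 221 CPM in scramble and 121 and 128 CPM in vector. The 4 groups did not overlap, with scramble between the hairpins and vector lowest. In the knockout arm PDGFRB was low, at 23.6 and 26.9 CPM in p53 KO against 19.9 and 19.7 CPM in KO control. PDGFRB rose against vector in all 3 hairpin-carrying groups. The log2 fold change was 0.61 for shRNA 1 (SE 0.08, edgeR adjusted p = 0.00105), 1.09 for shRNA 2 (2.13-fold, adjusted p = 8.35e-06) and 0.83 for scramble (adjusted p = 7.48e-05). Neither hairpin was called against scramble, where shRNA 1 was at -0.22 (adjusted p = 0.135) and shRNA 2 at 0.26 (adjusted p = 0.0926).

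The hairpins differed from each other for PDGFRB, with shRNA 1 lower than shRNA 2 (log2 fold change -0.48, SE 0.08, edgeR adjusted p = 0.00357). That call was lost without shRNA 1 replicate 1 (adjusted p = 0.0526). In the knockdown-arm fit PDGFRB was called lower with shRNA 1 and higher with shRNA 2 against scramble (adjusted p = 1.69e-04 and 6.28e-06). In p53 KO the log2 fold change was 0.35 (SE 0.10, adjusted p = 0.526). Its KO effect minus the mean hairpin effect was 0.33 (unadjusted p = 0.0178 and adjusted p = 0.231 in edgeR's fit across all genes).

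KIT, the stem cell factor receptor and a close relative of the PDGF receptors, was not detected above a single read. It had 0 counts in 11 libraries and 1 count in shRNA 2 replicate 2. A count of 0 allows up to 3 counts, which is 0.186 to 0.321 CPM per library, counting error only. KIT was not tested in any comparison. Its ligand KITLG was present, at 13.5 and 11.6 CPM in p53 KO against 6.19 and 11.2 CPM in KO control. In the knockdown arm KITLG was at 30.7 and 33.1 CPM with shRNA 1 and 33.8 and 31.7 CPM with shRNA 2. Scramble was at 21.0 and 24.0 CPM and vector at 23.4 and 24.1 CPM. KITLG libraries were thus higher in every p53-depleted group than in the controls of its arm, as for 0.98% of all genes. KITLG was not called in any of the 8 comparisons.

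EGFR, the receptor of EGF and its relatives, was called in none of the 8 comparisons with all libraries, and its libraries overlapped in the knockout arm. EGFR was at 89.9 and 60.2 CPM in p53 KO against 47.2 and 89.9 CPM in KO control. It was at 149.6 and 150.0 CPM with shRNA 1 and at 163 and 160.2 CPM with shRNA 2, against 156 and 166 CPM in scramble and 151 and 164 CPM in vector. The knockdown-arm values lay close together, and the log2 fold changes ran from -0.11 to 0.18 over the 8 comparisons, with standard errors from 0.24 to 0.32. In p53 KO the value turned on the KO control libraries: it was -0.26 without KO control replicate 1 and 0.67 without KO control replicate 2. EGFR overlaps the antisense gene EGFR-AS1, which was at 2.23 to 9.21 CPM; the strand setting of the count is not given in the sources used here.

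ERBB2, a co-receptor with no known ligand of its own, stayed between 35.7 and 55.6 CPM in all libraries and was called once. It was at 35.7 and 42.8 CPM in p53 KO against 49.7 and 41.8 CPM in KO control. It was at 42.6 and 48.8 CPM with shRNA 1 and at 41.9 and 42.9 CPM with shRNA 2, against 44.8 and 41.0 CPM in scramble and 54.3 and 55.6 CPM in vector. Vector was above the other 3 knockdown-arm groups, and the remaining groups overlapped. ERBB2 was lower with shRNA 2 than in vector (log2 fold change -0.37, SE 0.12, edgeR adjusted p = 0.0484). It was lost in 8 of 12 runs that left out 1 library, those without any library of shRNA 1, shRNA 2, scramble or vector (adjusted p between 0.0616 and 0.217). DESeq2 did not call it (adjusted p = 0.0784). ERBB2 overlaps PGAP3 and MIEN1 on the opposite strand, of which MIEN1 was at 8.08 to 15.3 CPM.

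MET, the receptor of hepatocyte growth factor, was called in none of the 8 comparisons with all libraries. It was at 201 and 157 CPM in p53 KO against 135 and 211 CPM in KO control, where the groups overlapped. In the knockdown arm it ran from 139.7 CPM with shRNA 2 to 182 CPM in vector. Its log2 fold changes ran from -0.26 to 0.22 over the 8 comparisons. In the knockdown-arm edgeR fit MET was called higher with shRNA 1 than in scramble (adjusted p = 0.00149) and than with shRNA 2 (adjusted p = 8.35e-04). That fit also called it lower with shRNA 2 than in vector (adjusted p = 3.27e-05). It called neither shRNA 2 against scramble nor shRNA 1 against vector. In p53 KO MET was at -0.24 without KO control replicate 1 and at 0.40 without KO control replicate 2. HGF, its ligand, had at most 1 count in any library.

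AXL, which binds GAS6, had the highest level per kilobase of exon in the knockout arm and differed mainly between vector and the other knockdown-arm groups. It was at 653 and 667 CPM in p53 KO against 665 and 662 CPM in KO control. It was at 765 and 837 CPM with shRNA 1, 654 and 671 CPM with shRNA 2, 687 and 669 CPM in scramble and 1116 and 1096 CPM in vector. The p53 KO and its control overlapped, as did shRNA 2 and scramble, while vector stood above every other library. AXL fell against vector in all 3 hairpin-carrying groups. The log2 fold change was -0.47 for shRNA 1 (SE 0.08, edgeR adjusted p = 0.0038), -0.74 for shRNA 2 (0.599-fold, adjusted p = 7.59e-05) and -0.71 for scramble (adjusted p = 1.64e-04).

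Neither hairpin was called for AXL against scramble in edgeR's fit, where the log2 fold change of shRNA 1 was 0.24 (adjusted p = 0.0906) and that of shRNA 2 was -0.03. The shRNA 1 call against vector was lost without shRNA 1 replicate 1 (adjusted p = 0.0638) and without vector replicate 1 (adjusted p = 0.0513). AXL was higher with shRNA 1 than with shRNA 2 by 0.27 (edgeR adjusted p = 0.0433), a call lost in 10 of 12 runs that left out 1 library, all but those without a KO control library (adjusted p between 0.0588 and 0.279). In p53 KO the log2 fold change of AXL was -0.01 (SE 0.08, adjusted p = 0.983). The AXL ligand GAS6 was at 217 and 225 CPM with shRNA 1 and 150.4 and 156 CPM with shRNA 2, and was higher with shRNA 1 by 0.53 (adjusted p = 0.0363).

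FGFR1, a receptor of fibroblast growth factors, put shRNA 1 beside vector and shRNA 2 beside scramble. It was at 311 and 328 CPM with shRNA 1 and 325 and 324 CPM in vector, which overlapped. It was at 457 and 451 CPM with shRNA 2 and 445 and 451 CPM in scramble, which also overlapped. FGFR1 fell with shRNA 1 against scramble (log2 fold change -0.49, SE 0.08, 0.713-fold, edgeR adjusted p = 0.00372) and was the 1 receptor called against scramble. That call was lost without shRNA 1 replicate 1 (adjusted p = 0.0607). FGFR1 rose against vector, with log2 fold changes of 0.48 for shRNA 2 (adjusted p = 0.0013) and 0.47 for scramble (adjusted p = 0.00233), and it was lower with shRNA 1 than with shRNA 2 (log2 fold change -0.51, adjusted p = 0.00201).

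In p53 KO FGFR1 was at 213 and 214 CPM, against 248 and 224 CPM in KO control. The groups did not overlap, and the log2 fold change was -0.15 (SE 0.08, edgeR adjusted p = 0.788). LETM2 overlaps FGFR1 on the opposite strand and was at 16.6 to 55.7 CPM.

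IGF1R, the receptor of insulin-like growth factors, was highest with shRNA 1. It was at 267 and 263 CPM with shRNA 1 and 201 and 192 CPM with shRNA 2, against 210.1 and 221 CPM in scramble and 187 and 187 CPM in vector. The groups of the knockdown arm did not overlap. IGF1R rose by 0.50 with shRNA 1 against vector (SE 0.10, 1.42-fold, edgeR adjusted p = 0.0089) and was higher with shRNA 1 than with shRNA 2 by 0.43 (adjusted p = 0.0171). The first call was lost without either library of shRNA 1 or of vector (adjusted p between 0.0601 and 0.082), and the second without either library of shRNA 1 or shRNA 2 (adjusted p between 0.0868 and 0.142). Against scramble shRNA 1 was at 0.30 (adjusted p = 0.0988). In p53 KO it was at 165 and 149 CPM, against 126 and 155 CPM in KO control, which overlapped.

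EPHA2, a receptor of membrane-bound ephrin-A ligands, separated the hairpins. It was at 105 and 114 CPM with shRNA 1 and 167 and 168 CPM with shRNA 2, against 144 and 131 CPM in scramble and 138 and 141 CPM in vector. The hairpins lay on opposite sides of both controls, and scramble and vector overlapped. EPHA2 was lower with shRNA 1 than with shRNA 2 (log2 fold change -0.61, SE 0.11, 0.655-fold, edgeR adjusted p = 0.00495), a call lost without shRNA 1 replicate 1 (adjusted p = 0.0671). No hairpin was called against scramble or vector, with log2 fold changes of -0.33 and -0.35 for shRNA 1 and 0.28 and 0.26 for shRNA 2. In the knockdown-arm fit all 4 of these were called (adjusted p between 4.04e-07 and 1.14e-05). In the knockout arm EPHA2 was at 202 and 232 CPM in p53 KO against 256 and 208 CPM in KO control, which overlapped.

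**Figure D2:**
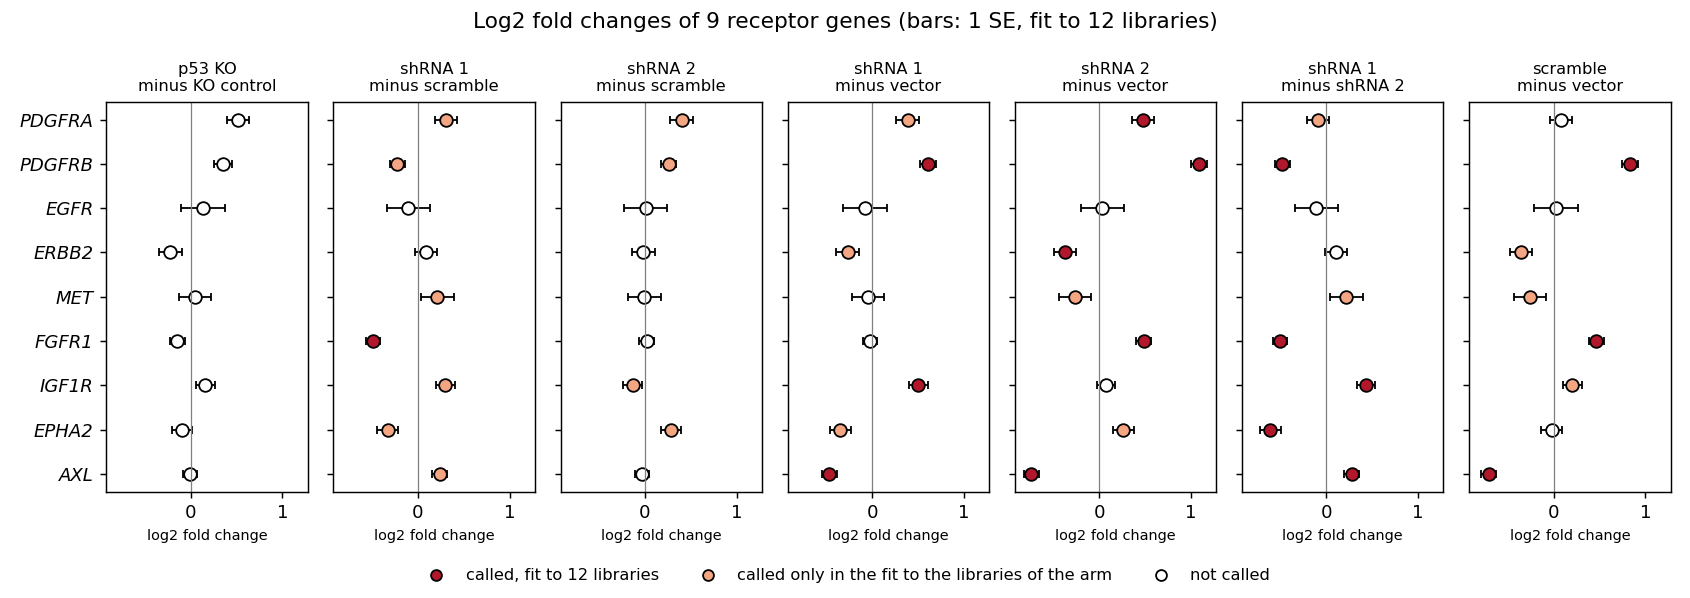
Log2 fold change of the 9 tested receptors, from the edgeR fit to all 12 libraries, with bars of 1 SE. Every comparison is drawn but the KO effect minus the hairpin effect. Red points had an adjusted p below 0.05 in that fit. Orange points had it only in the fit to the libraries of the arm, and white points in neither. PDGFRA is at 0.52 in p53 KO and at 0.31 to 0.48 in the 4 hairpin comparisons, while AXL and PDGFRB are farthest from 0 in the comparisons with vector.

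Over the 9 tested receptors, the counts of calls in p53 KO against KO control were 0 up and 0 down, where 0.00748% of all genes were called, that is 1 gene. At an unadjusted p below 0.05 edgeR gave 2 receptors, PDGFRA and PDGFRB, and 849 genes, and neither DESeq2 nor limma-voom called a receptor. The receptors' median log2 fold change was 0.05, beside -0.01 over all genes. The libraries did not overlap for 3 receptors, PDGFRA, PDGFRB and FGFR1, and for 23.2% of all genes. Several fold changes turned on the KO control libraries. Without KO control replicate 2 the log2 fold change was 0.72 for PDGFRA and 0.67 for EGFR. Without KO control replicate 1 it was 0.34 for PDGFRA and -0.26 for EGFR. Each of these fits left 1 KO control library, which was assumed to vary like the other groups.

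Against scramble shRNA 1 gave 1 receptor called of 9, where 9.08% of all genes were called. It fell, as did 4.83% of all genes, and 0 rose, beside 4.26%. Libraries did not overlap for 8 receptors and for 62% of all genes, and the receptors' median log2 fold change was 0.09, beside 0.00 over all genes. For shRNA 2 edgeR called 0 receptors, where 7.4% of all genes were called, 3.39% up and 4.01% down; DESeq2 called 1, PDGFRA, and 3 receptors had an unadjusted p below 0.05, beside 2856 genes. Libraries did not overlap for 4 receptors and for 62.6% of all genes, and the receptors' median was 0.01, beside 0.00 over all genes.

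More receptors were called against vector. For shRNA 1 3 were called, where 12.7% of all genes were, with 2 up (5.6% of all genes) and 1 down (7.08%), and 8 receptors had libraries that did not overlap (68.1%). For shRNA 2 5 were called (20.6%), with 3 up (9.1%) and 2 down (11.5%), and 8 did not overlap (71.9%). Scramble against vector, neither aimed at p53 per the labels, gave 3 calls (14.9%), with 2 up (6.94%) and 1 down (7.98%), and 7 that did not overlap (69.2%). PDGFRB was up and AXL down in all 3 of these comparisons.

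The hairpins were also set against each other. In shRNA 1 against shRNA 2 5 receptors were called, beside 14% of all genes, with 2 higher (6.94%) and 3 lower (7.03%) with shRNA 1, and 8 did not overlap (66.6%). The KO effect minus the mean hairpin effect gave 0 receptors by edgeR, where 0.973% of all genes were called, 0.584% up and 0.389% down. At an unadjusted p below 0.05 it gave 1 receptor and 1933 genes, and DESeq2 called 0 receptors.

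The knockdown-arm fit called 7 receptors with shRNA 1 and 4 with shRNA 2 against scramble, where 32.3% and 30.6% of all genes were called. Against vector it called 6 and 7, where 39.6% and 45.6% were called. It also called 7 between the hairpins (37.8%) and 6 between scramble and vector (41.1%). EGFR and MET were the 2 receptors with no call in the fit to all libraries.

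The libraries of the arms did not overlap for 6 of the 9 receptors. All 8 knockdown-arm libraries were above all 4 knockout-arm libraries for 5 receptors, as for 25.5% of all genes, and below them for 1, as for 27.2%. The mean over the 8 knockdown-arm libraries divided by that over the 4 knockout-arm libraries was 8.92 for PDGFRB, 7.84 for PDGFRA, 2.19 for EGFR, 1.72 for FGFR1 and 1.45 for IGF1R. For EPHA2 it was 0.617. Between controls alone, scramble and vector over KO control, the ratio was 8.77 for PDGFRB and 8.24 for PDGFRA. ERBB2, MET and AXL overlapped between arms. These ratios are descriptions with no test, since arm, construct and doxycycline cannot be told apart.

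Per kilobase of exon, which allows levels of different genes to be compared, PDGFRA and AXL ranked first and second among the 58 receptor tyrosine kinase genes in the table in every group but KO control, where EPHA2 was second, at 58.5 CPM per kb. PDGFRA was at 420.1 CPM per kb with shRNA 1, 447 with shRNA 2, 339 in scramble and 321 in vector, ranking first in all 4. In p53 KO it was at 57.3 CPM per kb and ranked 2, and in KO control at 40.1 CPM per kb and ranked 3. AXL led the knockout arm, at 135 CPM per kb in p53 KO and 135 in KO control, and ranked 2 in the knockdown arm. PDGFRB ranked 14 in p53 KO and 16 in KO control, and 5 in all knockdown-arm groups but vector, where it ranked 10. FGFR1 ranked 3 in the 4 knockdown-arm groups. Exon lengths are from GENCODE v29, not the authors' annotation.

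**Figure D3:**
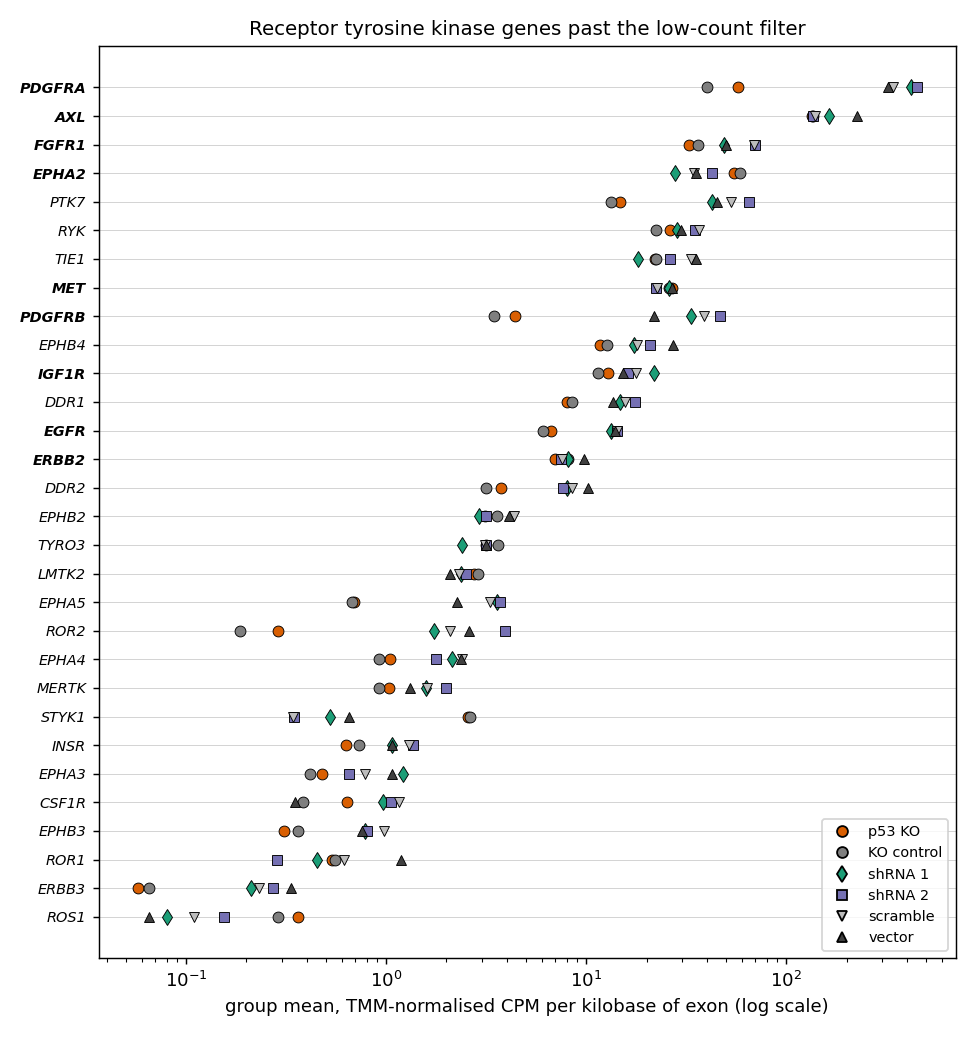
Mean level per kilobase of exon in each group, in CPM per kb on a log axis, for the receptors that passed the low-count filter. PDGFRA is at 321 to 447 CPM per kb in the knockdown arm and 40.1 to 57.3 in the knockout arm, and AXL is at 135 to 226 in all 6 groups.

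Of the 48 other receptor tyrosine kinase genes 21 were tested. In p53 KO edgeR called 0 of them, with 3 at an unadjusted p below 0.05, beside 6.35% of all genes. Against scramble 3 fell and 0 rose with shRNA 1, where 4.83% of all genes fell and 4.26% rose. TIE1, an endothelial receptor, had a log2 fold change of -0.87 (edgeR adjusted p = 6.98e-04), EPHB2, an ephrin-B receptor, of -0.59 (adjusted p = 0.00344), and TYRO3, a relative of AXL, of -0.39 (adjusted p = 0.0421). For shRNA 2 1 fell and 1 rose, where 4.01% and 3.39% of all genes did. EPHB2 was again lower, at -0.48 (adjusted p = 0.0109), and ROR2, a WNT5A receptor, was higher, at 0.91 (adjusted p = 0.00397). The list's median log2 fold change was -0.25 with shRNA 1 and 0.03 with shRNA 2, beside 0.00 over all genes in both. EPHB2 was the 1 kinase of this list called against scramble with both hairpins.

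Of 26 ligands 17 were tested, 0 of them called in p53 KO and 3 there at an unadjusted p below 0.05 in edgeR, beside 6.35% of all genes. Against scramble 3 fell and 0 rose with each hairpin, where 4.83% of all genes fell and 4.26% rose with shRNA 1, and 4.01% fell and 3.39% rose with shRNA 2. HBEGF, a membrane-bound EGFR ligand, was the 1 ligand called with both. It was at 6.92 and 6.96 CPM with shRNA 1 and 8.59 and 8.77 CPM with shRNA 2, against 14.8 and 14.3 CPM in scramble. Vector, however, was at 7.39 and 8.29 CPM, within the range of the hairpin libraries, and HBEGF was higher in scramble than in vector (log2 fold change 0.89, edgeR adjusted p = 0.00337). The ligand list's median log2 fold change was -0.24 with shRNA 1 and -0.27 with shRNA 2 against scramble, and -0.06 and -0.10 against vector.

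PDGFD, a PDGFRB ligand, moved differently in the arms. It was at 17.1 and 14.5 CPM in p53 KO against 8.21 and 8.77 CPM in KO control, without overlap. It was at 6.29 and 5.46 CPM with shRNA 1 and 2.86 and 3.39 CPM with shRNA 2, against 7.92 and 6.06 CPM in scramble and 7.99 and 7.36 CPM in vector. PDGFD fell with shRNA 2, with log2 fold changes of -1.15 against scramble (edgeR adjusted p = 0.00515) and -1.29 against vector (adjusted p = 7.00e-04). In p53 KO it was at 0.90 (SE 0.15, adjusted p = 0.108). The KO effect minus the mean hairpin effect was 1.59 (SE 0.22, adjusted p = 0.00817), the 1 ligand called in that test.

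PDGFA, a PDGFRA ligand, fell with shRNA 1 against scramble (log2 fold change -0.55, edgeR adjusted p = 0.0131) and was higher in scramble than in vector (log2 fold change 0.77, adjusted p = 0.00108). PDGFC, another PDGFRA ligand, lay between 220.4 and 370.3 CPM and was called in no comparison. FGF1, a ligand of FGFR1, was low and fell with shRNA 1, with log2 fold changes of -1.74 against scramble (adjusted p = 0.0236) and -2.17 against vector (adjusted p = 0.00455). EGF fell with shRNA 2 against scramble (log2 fold change -0.73, adjusted p = 0.0338). NRG1, which binds ERBB3 and ERBB4 and signals through ERBB2 as their partner, fell against vector, with log2 fold changes of -1.05 for shRNA 1, -1.16 for shRNA 2 and -1.04 for scramble (adjusted p = 2.35e-04, 4.16e-05 and 1.34e-04). TGFA and IGF2 had 0 counts in all libraries, and PDGFB and IGF1 had at most 1 count in any.

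**Figure D4:**
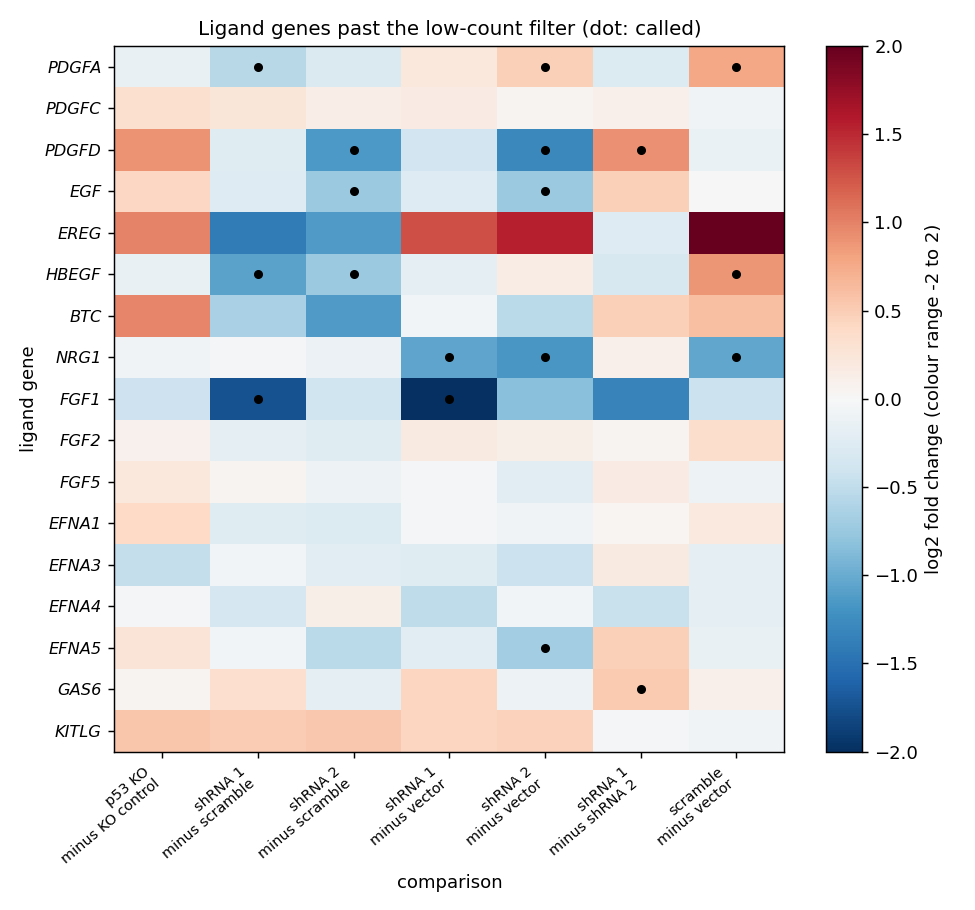
Log2 fold change of the 17 tested ligands in each comparison but the KO effect minus the hairpin effect, colours running from lower to higher. HBEGF is lower with both hairpins than in scramble, at -1.07 and -0.74, and PDGFD is at 0.90 in p53 KO and at -1.15 with shRNA 2 against scramble.

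Adaptors and signal carriers, of which 17 of 18 were tested, gave 0 calls in p53 KO with edgeR and 1 at an unadjusted p below 0.05 (6.35% of all genes). Against scramble 1 rose and 1 fell with shRNA 1 (4.26% and 4.83% of all genes), and 3 rose and 0 fell with shRNA 2 (3.39% and 4.01%). IRS1, which docks to IGF1R, was at 131 and 139 CPM with shRNA 1 and 154 and 143 CPM with shRNA 2, against 95.2 and 98.4 CPM in scramble and 96.5 and 109 CPM in vector. Both hairpins were above both controls, and IRS1 rose in all 4 of these comparisons: by 0.48 and 0.62 on the log2 scale against scramble (edgeR adjusted p = 0.0153 and 0.0046) and by 0.39 and 0.53 against vector (adjusted p = 0.0294 and 0.00359). In p53 KO it was at 128 and 116 CPM, against 87.9 and 101 CPM in KO control, and was not called. STAT3, a transcription factor activated by many kinases, rose with shRNA 2 against scramble by 0.44 (adjusted p = 0.00543) and against vector by 0.47 (adjusted p = 0.0012). GAB2, a docking adaptor, fell with shRNA 1, with log2 fold changes of -0.43 against scramble (adjusted p = 0.0312) and -0.52 against vector (adjusted p = 0.00985).

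Negative regulators, of which 19 of 20 were tested, gave 0 calls in p53 KO with edgeR and 1 at an unadjusted p below 0.05 (6.35% of all genes). For shRNA 1 against scramble 2 rose and 3 fell (4.26% and 4.83% of all genes), and for shRNA 2 3 rose and 1 fell (3.39% and 4.01%). PTPRF, a receptor-type tyrosine phosphatase, was at 658 and 722 CPM with shRNA 1 and 714 and 727 CPM with shRNA 2, against 295 and 304 CPM in scramble and 969 and 968 CPM in vector. The hairpins lay between the controls, so the direction turned with the control: PTPRF rose against scramble, with log2 fold changes of 1.21 and 1.27 (edgeR adjusted p = 2.20e-05 and 2.44e-05), and fell against vector, at -0.49 and -0.43 (adjusted p = 0.0037 and 0.00407). ERRFI1, a feedback inhibitor of EGFR, rose against scramble by 0.48 with shRNA 1 and 0.71 with shRNA 2 (adjusted p = 0.0226 and 0.00362), and scramble was lower than vector (log2 fold change -0.58, adjusted p = 0.00518). SH2B3, an adaptor that restrains cytokine and KIT signalling, rose against vector by 0.59 with shRNA 1 and 1.14 with shRNA 2 (adjusted p = 0.010 and 7.42e-05). Scramble was also higher than vector for SH2B3, by 0.68 (adjusted p = 0.00332), and shRNA 1 was below scramble, at 129.6 and 138 CPM with shRNA 1 against 139.9 and 144 CPM in scramble.

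Sheddases and co-receptors, of which 13 of 17 were tested, gave 0 calls in p53 KO with edgeR and 3 at an unadjusted p below 0.05 (6.35% of all genes). Set against scramble, 2 rose and 3 fell with shRNA 1 (4.26% and 4.83% of all genes), and 1 rose and 4 fell with shRNA 2 (3.39% and 4.01%). IGF2R, which clears IGF2, was at 344 and 341 CPM with shRNA 1 and 485 and 480.0 CPM with shRNA 2, against 219 and 227 CPM in scramble and 266.3 and 266.3 CPM in vector. It was above both controls with both hairpins. IGF2R rose against scramble by 0.62 with shRNA 1 (edgeR adjusted p = 0.00573) and by 1.11 with shRNA 2 (adjusted p = 2.47e-04). Against vector shRNA 1 was at 0.36 and not called (adjusted p = 0.0529), while shRNA 2 was at 0.86 (adjusted p = 2.59e-04). IGF2R was lower with shRNA 1 than with shRNA 2 (log2 fold change -0.50, adjusted p = 0.0125). IGFBP3, an insulin-like growth factor binding protein, was at 153 and 167 CPM with shRNA 1 and 87.5 and 88.8 CPM with shRNA 2, against 203 and 201 CPM in scramble and 365 and 375 CPM in vector. It was below both controls with both hairpins, and fell against vector, with log2 fold changes of -1.21 for shRNA 1 (adjusted p = 1.19e-05) and -2.07 for shRNA 2 (adjusted p = 9.38e-08). In p53 KO IGFBP3 was at 98.1 and 103 CPM against 94.2 and 93.2 CPM in KO control, and the KO effect minus the mean hairpin effect was 0.87 (adjusted p = 0.00404). The protease ADAM17 fell with shRNA 2 against scramble (log2 fold change -0.69, adjusted p = 0.00427).

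Among 9177 genes with a mean of at least 5 CPM, those whose log2 level was most like PDGFRA over the 12 libraries were THBS2, a matricellular protein, and EDIL3. Over the 8 knockdown-arm libraries alone their Pearson r with PDGFRA was 0.90 and 0.89. For PDGFRB they were ITGA11, a collagen-binding integrin, and DNAJB9, with r of 0.96 and 0.96 over the 8. For AXL they were EVI2B and HSPA12A, with r of 0.97 and 0.96, and for FGFR1 CTNNA1 and TRIB1, with r of 0.97 and 0.97. For IGF1R they were GALC and ADAM10, with r of 0.96 and 0.96. For EPHA2 they were H2AFY and PQLC2, with r of 0.98 and 0.96, and for ERBB2 MED16 and IFT122, with r of 0.97 and 0.98. For MET they were CCDC88A and HELZ, with r of 0.98 and 0.88. EGFR was most like MED13L, with r of 0.90, and PTPRG, with r of 0.22, which shared the difference between arms but not the order within the knockdown arm. The order over the 12 libraries includes the difference between arms. Over the 8 alone KIF3B was most like PDGFRA, with r of 0.99, and 0.07 over the 12. HSPA8 was most like PDGFRB over the 8, with r of 0.998, and -0.81 over the 12. CCDC88A was most like MET over both. The libraries of a group share their construct and the r values over the 8 describe 4 pairs of libraries, so they carry no test.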

How the data were processed

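RNA of LMSU cells was sequenced from libraries made with an mRNA kit. The authors deposited raw read counts per gene symbol, not normalised; per the submitters' processing notes, bcl2fastq, STAR 2.5 and hg19 were used. The sources used here name no counter, strand setting or annotation; overlapping genes on opposite strands may share reads. In this table VIM-AS1 had 3054 CPM beside 6814 CPM of VIM in p53 KO replicate 1. The labels give no sequencing batch.

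The counts were fitted with edgeR 4.0.16 in R 4.3.3. filterByExpr (minimum count 10) left 13365 genes, and levels are CPM after TMM scaling, which depend on the library totals. The 6 groups were fitted together (6 residual degrees of freedom) and each of 8 comparisons tested with the two-sided quasi-likelihood F test (robust). Benjamini-Hochberg adjustment ran over the 13365 genes within a comparison, and called means an adjusted p below 0.05. Fold changes are those of edgeR, with its prior count. Intervals and limits for 0 counts cover counting error only. All 10 receptors were named. From each list up to 3 called genes with the smallest adjusted p could be named per comparison, and for each receptor the 2 genes with the highest correlation; KITLG, PDGFC, genes at 0 and genes overlapping a receptor were named after their values were seen. The receptors and lists were chosen with earlier results of these data known. The level of the gene targeted in both arms, and the 1 gene called in p53 KO, are not reported here.

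The replicate numbers of the labels did not pair the libraries. Deviations of same-numbered libraries correlated at -0.58 between p53 KO and KO control and between -0.05 and 0.03 within the knockdown arm. The procedure was tested on simulated data. Alternatives were DESeq2 1.42.0, limma-voom (limma 3.58.1), DESeq2 size factors, no filter, a minimum count of 50, fits within each arm, a replicate block, an adjusted p below 0.01, the ratio of mean CPM, and each library left out in turn. A crossed replicate block was added after the data had been seen. It set p53 KO replicate 1 with KO control replicate 2, and p53 KO replicate 2 with KO control replicate 1. Promoter sequences are from RefSeq (GRCh38.p14), with 10 of 10 receptors matched by symbol and no sequence shown for FGFR1; exon lengths are from GENCODE v29. Figures were drawn with matplotlib 3.10.9.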

Additional observations from a re-analysis of the deposited data

Results flagged for a closer look

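No receptor, but 6 genes of the receptor-related and marker lists, had a p53 KO effect that differed from the mean hairpin effect against scramble, each at an edgeR adjusted p below 0.05 in the test of that difference, which called 0.973% of all genes. The values are KO effect minus hairpin effect on the log2 scale. PDGFD was at 1.59 (adjusted p = 0.00817) and IGFBP3 at 0.87 (adjusted p = 0.00404), with the levels given above. PTPRF was at -1.27 (adjusted p = 7.69e-04). It was at 534 and 522 CPM in p53 KO against 516 and 562 CPM in KO control, which overlapped, while both hairpins were above scramble and below vector. IGF2R was at -0.89 (adjusted p = 0.020). It was at 199.7 and 168 CPM in p53 KO against 167 and 207 CPM in KO control, which also overlapped.

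The other two were marker genes at low levels. POSTN, the matrix protein periostin, was at 1.63 (adjusted p = 0.0371). It was at 2.003 and 1.90 CPM in p53 KO against 0.696 and 0.766 CPM in KO control, at 12.2 and 10.9 CPM with shRNA 1 and at 11.4 and 9.46 CPM with shRNA 2, against 13.2 and 12.4 CPM in scramble and 6.34 and 5.38 CPM in vector. CPA3, a carboxypeptidase known from mast cells, was at 1.79 (adjusted p = 0.0304). Of the other mast cell markers TPSAB1 and MS4A2 had 0 counts in all 12 libraries and HDC at most 1 count. CPA3 was at 2.60 and 2.03 CPM in p53 KO against 1.74 and 1.79 CPM in KO control. In the knockdown arm CPA3 was at 0.989 and 0.964 CPM with shRNA 1 and at 1.80 and 1.62 CPM with shRNA 2. Scramble was at 3.88 and 2.99 CPM and vector at 4.53 and 5.13 CPM. Scramble itself was lower than vector for PTPRF (log2 fold change -1.69, adjusted p = 6.63e-07) and IGFBP3 (log2 fold change -0.87, adjusted p = 4.01e-05) and higher for POSTN (log2 fold change 1.13, adjusted p = 3.70e-04); the same difference taken against vector was not tested. The arms also differ in construct and doxycycline, which cannot be told apart from the way p53 was depleted.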

How the results depend on the processing

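No called log2 fold change of a receptor changed sign under any alternative run; uncalled values within 1 SE of 0 were given no direction. The counts of receptors called moved between settings. In p53 KO against KO control the 0 called became 1 with no low-count filter, 2 with the crossed block and 0 to 8 with 1 library left out. With shRNA 1 against scramble the 1 called became 2 with no filter, 7 with the libraries of the arm only, 7 with the crossed block and 0 to 6 with 1 library left out. With shRNA 2 against scramble the 0 called became 1 with DESeq2, 1 with no filter, 4 within the arm, 3 with the crossed block and 0 to 3 with 1 library left out. With shRNA 1 against vector the 3 called became 4 with DESeq2, 5 with no filter, 6 within the arm and 6 with the crossed block. It was 1 to 6 with 1 library left out. With shRNA 2 against vector the 5 called became 4 with DESeq2, 4 with DESeq2 size factors, 7 within the arm and 7 with the crossed block. It was 3 at an adjusted p below 0.01 and 3 to 7 with 1 library left out. Between shRNA 1 and shRNA 2 the 5 called became 4 with DESeq2, 4 with DESeq2 size factors, 7 within the arm and 6 with the crossed block. It was 3 at that threshold and 1 to 5 with 1 library left out. Between scramble and vector the 3 called became 4 with no filter, 6 within the arm and 6 with the crossed block. It was 3 to 6 with 1 library left out. For the KO effect minus the hairpin effect the 0 called became 1 with the crossed block and 0 to 2 with 1 library left out. Of 17 receptor calls 8 were kept in every such run. Leaving out KO control replicate 1 added 16 receptor calls and leaving out KO control replicate 2 added 26; the cause was not tested.

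The count of all genes called in p53 KO was 1, against 20 with DESeq2, 2 with DESeq2 size factors, 64 with no filter, 2 with a minimum count of 50, 0 within the arm, 709 with the crossed block and 1 to 4159 with 1 library left out. For the KO effect minus the hairpin effect it was 130, against 214 with DESeq2, 505 with no filter, 52 with the replicate block, 30 at the stricter threshold, 1988 with the crossed block and 8 to 3358 with 1 library left out. In the 6 knockdown-arm comparisons it ran from 989 to 2757, from 4092 to 6089 within the arm, from 357 to 1483 at the stricter threshold and from 3249 to 5356 with the crossed block.

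The replicate block over all 12 libraries groups libraries of the same number, although their deviations correlated at -0.58 between p53 KO and KO control. This block left 70 of 72 receptor results on the same side of the threshold. It ended 2 calls, ERBB2 with shRNA 2 against vector and AXL between the hairpins, and gave 0, 1, 0, 3, 4, 4, 3 and 0 receptors called over the 8 comparisons. With 1 library of a group left out, the remaining library was assumed to vary like the other groups.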
